A study of Mus musculus with 8 samples.

Results

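The 6 genes described here belong to the Wnt pathway: Tcf7l1, Tcf7l2 and Lef1, which encode DNA-binding TCF/LEF factors, Rspo3, which encodes a secreted enhancer of Wnt signalling, Axin2, a target and feedback inhibitor, and Ctnnb1, which encodes β-catenin. They were chosen by their symbols, with earlier results of these data known, and all 6 were found among the 14166 genes of the count tables. Nuclei came from the dorsal telencephalon of C57BL/6J mouse embryos at E15.5 (days of embryonic development), the tissue that gives rise to the cerebral cortex. The groups were 4 wildtype samples and 4 samples knocked out for Pantr2, a long noncoding RNA gene, and no treatment was named for either group. How the knockout allele was made, and whether a sample was 1 embryo or a pool, was not given in the sources used here, so p-values measure the spread between these samples, which may be technical. The targeted gene itself was not analysed here, so the genotypes rest on the labels.

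Wnt proteins bind Frizzled and LRP receptors at the cell surface and keep β-catenin from being destroyed by a complex that contains Axin proteins. β-catenin then enters the nucleus and joins TCF/LEF factors on DNA, which without it tend to repress their targets. R-spondins strengthen the signal by holding back ZNRF3 and RNF43, enzymes that remove Frizzled receptors. In the embryonic forebrain the pathway is known for the growth of the progenitor pool and for the patterning of the cortex and hippocampus from its medial edge.

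The tables held 67319 nuclei, 33781 wildtype and 33538 knockout, with 20446698 to 34083796 unique molecular identifiers (UMIs, each standing for 1 captured RNA molecule) per sample. The tables of nuclei held 1 library date within each sample, and whether it was the same for all 8 samples was not compared here. A barcode found in more than 1 library was carried by 1.52% of nuclei. The authors' 7 clusters were used, and levels are given as CPM, the UMIs of a gene per 1000000 UMIs of that sample in that cluster. By marker genes, cluster 4 was apical progenitor-like (8 of 8 measured markers, Pax6 and Hes5 among them, were highest there), and clusters 2 (Bcl11b, Fezf2, Ldb2, Sox5) and 3 (Tbr1, Tle4, Foxp2) were deep-layer neuron-like. Cluster 1, in which Cux1 and Cux2 of upper-layer neurons were highest, was left unnamed. Cluster 5 had the highest Eomes, Neurog2 and Btg2, markers of intermediate progenitors, but its leading genes included Slc17a6 and Ebf1 and none of those markers, so it stayed unnamed. Clusters 6 (led by Tafa1) and 7 (led by Gm32647 and Zfp385b) were also unnamed, and these rebuilt names may differ from those of the study. Markers of interneurons, which arise outside the dorsal telencephalon, summed to 27.6 to 47.4 CPM per wildtype sample against 4851 to 5627 CPM for deep-layer markers.

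On GRCm38 with the GENCODE M21 annotation, Tcf7l1 spans chr6:72626378-72789254 (minus strand), Tcf7l2 chr19:55741820-55933654 (plus), Lef1 chr3:131110471-131224356 (plus), Rspo3 chr10:29452416-29535867 (minus), Axin2 chr11:108920349-108950783 (plus) and Ctnnb1 chr9:120929216-120960507 (plus). Of the annotated genes that overlap them, 2 were also counted, both on the opposite strand: Gm48159 at Rspo3 and Ulk4 at Ctnnb1. Neither was called between the genotypes in any set of nuclei in which it was tested, and whether the counting used strand was not given in the sources used here.

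Lef1 and Tcf7l2 carry the results below, and each has at least 1 outer start and at least 1 start inside the gene in RefSeq on GRCm38.p6. The bases just after these starts were not found in the M21 transcripts of the genes. UMIs near the RNA's 3′ end do not tell these starts apart, so every count is a sum over them. The 250 bases before 2 starts of each gene follow, 5′ to 3′ on the gene's strand, with capitals where a TCF/LEF core motif matched on either strand. The motifs searched were CTTTGAT and, as a form of it with a different ending, CTTTGAA, together with the form CTTTGTT and the related form CTTTGTA; each is of equal length and none holds another.
Lef1 outer start, chr3:131110047-131110296, plus strand: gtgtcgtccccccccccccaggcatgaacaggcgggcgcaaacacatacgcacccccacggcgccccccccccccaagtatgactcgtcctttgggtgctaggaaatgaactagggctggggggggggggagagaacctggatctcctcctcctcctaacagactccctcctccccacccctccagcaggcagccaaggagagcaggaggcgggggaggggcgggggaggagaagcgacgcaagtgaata
Lef1 inner start, chr3:131156044-131156293, plus strand: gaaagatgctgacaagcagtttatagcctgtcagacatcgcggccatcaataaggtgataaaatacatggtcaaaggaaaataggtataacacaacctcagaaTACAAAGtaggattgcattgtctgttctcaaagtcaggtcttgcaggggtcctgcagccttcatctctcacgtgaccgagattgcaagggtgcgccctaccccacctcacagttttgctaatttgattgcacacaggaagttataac
Tcf7l2 outer start, chr19:55741560-55741809, plus strand: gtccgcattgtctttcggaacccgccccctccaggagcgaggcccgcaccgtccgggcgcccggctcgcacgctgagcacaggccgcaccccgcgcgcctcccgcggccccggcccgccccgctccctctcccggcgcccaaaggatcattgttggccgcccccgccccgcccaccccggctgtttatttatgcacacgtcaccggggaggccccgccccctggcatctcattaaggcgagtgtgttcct
Tcf7l2 inner start, chr19:55895071-55895320, plus strand: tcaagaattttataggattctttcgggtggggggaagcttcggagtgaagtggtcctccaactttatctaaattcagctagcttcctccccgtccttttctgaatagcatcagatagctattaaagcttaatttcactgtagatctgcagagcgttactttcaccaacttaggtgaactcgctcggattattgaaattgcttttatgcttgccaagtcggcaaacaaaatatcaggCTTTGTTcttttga
The printed window before an inner Lef1 start, within the annotated span of the gene, held TACAAAG, which is CTTTGTA on the other strand. The window before the inner Tcf7l2 start held CTTTGTT, and neither printed outer window held a match. Lef1 also has a further outer start (window chr3:131110073-131110322) and a further inner start (window chr3:131112541-131112790). Neither of these windows, which are not printed, held a match. Any of the 4 motifs occurred in 14.84% of all 32851 RefSeq windows of this length, CTTTGTA in 3.202% and CTTTGTT in 5.029%. The windows before the Axin2, Ctnnb1 and Tcf7l1 starts held no match. A match of letters is not a bound site.

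Knockout was compared with wildtype over all nuclei and in each cluster, 8 comparisons per gene, with edgeR's quasi-likelihood test on UMIs summed per sample and Benjamini-Hochberg adjustment over all genes tested. Of the 48 comparisons of the 6 genes, 8 passed an adjusted p of 0.05, 7 of them higher in knockout and 1 lower, which is 16.7% against 3.93% of all gene comparisons. These shares are a description. The genes were chosen with earlier results of these data known, and the comparisons over all nuclei share nuclei with those of the clusters. Lef1 gave 5 of the 8 calls, Rspo3 gave 2 and Tcf7l2 gave 1, the only one that was lower. Tcf7l1, Axin2 and Ctnnb1 gave none. Of all genes tested, 5.26% were called over all nuclei (1.67% higher in knockout and 3.58% lower). For clusters 1 to 7 in turn the share called was 4.84%, 9.11%, 3.36%, 4.29%, 1.77%, 0.779% and 1.03%. Genes higher in knockout made up 2.54%, 3.92%, 1.48%, 1.17%, 0.868%, 0.352% and 0.578%, and genes lower in knockout 2.3%, 5.19%, 1.88%, 3.12%, 0.906%, 0.428% and 0.455%, in the same order. All 6 genes passed the filter on low counts in every comparison. The median log2 fold change of all genes tested lay within 0.01 of 0 in each comparison.

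**Figure D1:**
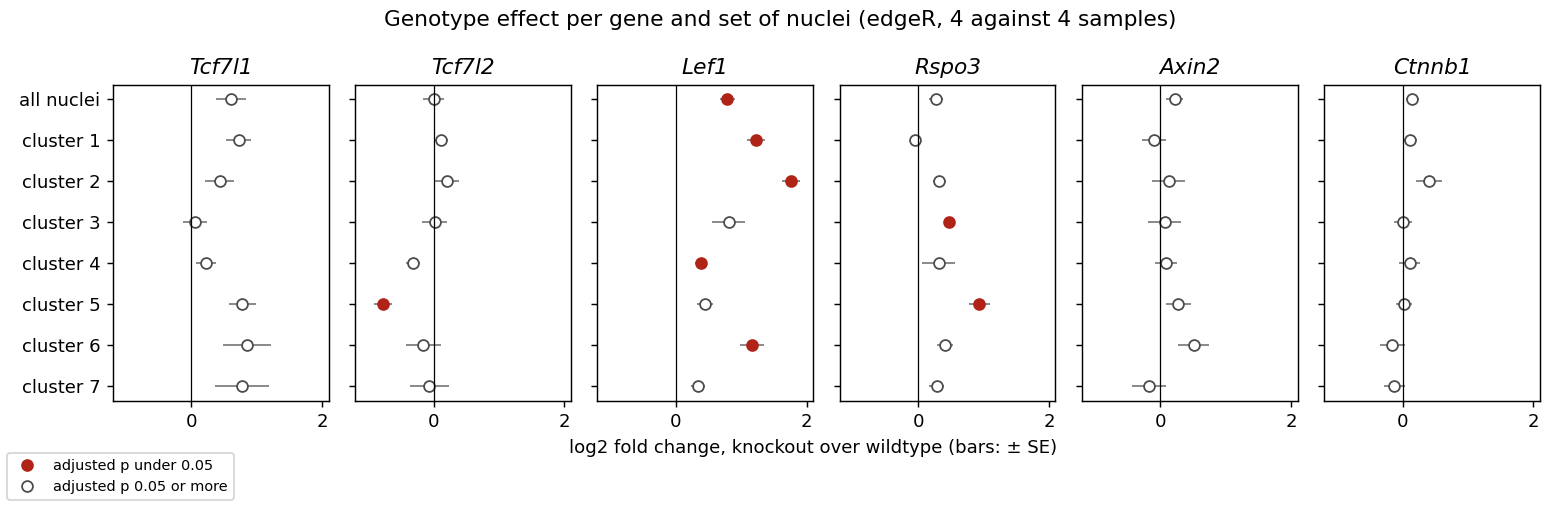
Log2 fold change, knockout over wildtype, of each gene (x axis, bars ± SE, 4 against 4 samples) over all nuclei and in each cluster (y axis); filled points passed an adjusted p of 0.05. Lef1 lies right of 0 in all 8 comparisons, and Tcf7l2 lies left of 0 in clusters 4 to 7, with the cluster 5 point alone filled.

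Lef1, a TCF/LEF factor known mainly as an activator of Wnt targets, was higher in knockout than in wildtype over all nuclei and in clusters 1, 2, 4 and 6. The largest fold change was fitted for cluster 2, where the mean rose from 11.3 to 37.8 CPM, a ratio of 3.36. The ratio was 2.28 for cluster 1, 2.20 for cluster 6 and 1.28 for the progenitor-like cluster 4. The fitted fold change was above 0 in all 8 comparisons.

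In cluster 2 the wildtype samples held 8.998, 14.1, 12.6 and 9.45 CPM of Lef1 and the knockout samples 39.3, 37.8, 41.2 and 32.9 CPM. The lowest knockout sample stood above every wildtype sample. The log2 fold change was 1.76 ± 0.14 (SE, n = 4 per group; edgeR adjusted p = 9.38e-06). In cluster 1 the wildtype samples held 42.5, 39.0, 41.5 and 32.3 CPM and the knockout samples 99.1, 82.2, 105 and 67.3 CPM, again with no overlap. The log2 fold change there was 1.23 ± 0.13 (edgeR adjusted p = 7.42e-05). In cluster 6 the levels were 19.5, 20.5, 24.6 and 16.2 CPM in wildtype and 35.5, 57.0, 47.2 and 37.8 CPM in knockout, and the groups did not overlap. The log2 fold change was 1.17 ± 0.18 (edgeR adjusted p = 0.00648). These calls held under all 13 alternatives, with an adjusted p of at most 9.85e-05, 0.00050 and 0.0331 for clusters 2, 1 and 6.

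In cluster 4, where Lef1 was highest, the wildtype samples held 173, 191, 161 and 144 CPM and the knockout samples 206, 223, 230 and 199 CPM. The groups did not overlap, and the log2 fold change was 0.38 ± 0.09 (edgeR adjusted p = 0.0251). This call was lost without any of wildtype replicates 1, 3 and 4 (adjusted p of 0.0717, 0.0652 and 0.0659) and without knockout replicates 2 and 3 (0.0748 and 0.0789). Over all nuclei the wildtype samples held 66.1, 70.5, 49.8 and 50.6 CPM and the knockout samples 113, 106, 104 and 82.9 CPM, with no overlap and a log2 fold change of 0.79 ± 0.12 (edgeR adjusted p = 0.00655). A level over all nuclei depends on the mix of cells as well as on RNA per cell, and these cannot be told apart in it. Cluster 4 made up 9.69% to 20.2% of nuclei in wildtype and 13.1% to 25.5% in knockout samples.

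Clusters 3, 5 and 7 did not pass the threshold for Lef1. In cluster 3, where it was lowest, the mean was 5.43 CPM in wildtype and 9.40 CPM in knockout, with no overlap (log2 fold change 0.81 ± 0.26, edgeR adjusted p = 0.124). With the replicate numbers as a block the adjusted p was 0.0424. In cluster 5 the mean was 114 CPM in wildtype and 153 CPM in knockout (0.45 ± 0.12, edgeR adjusted p = 0.106), and without wildtype replicate 2, the highest of its group at 149 CPM, the adjusted p was 0.0104. With sex as a covariate it was 0.0379. In cluster 7 the means were 132 and 165 CPM (0.34 ± 0.11, edgeR adjusted p = 0.219), and without the same sample the adjusted p was 0.0393.

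**Figure D2:**
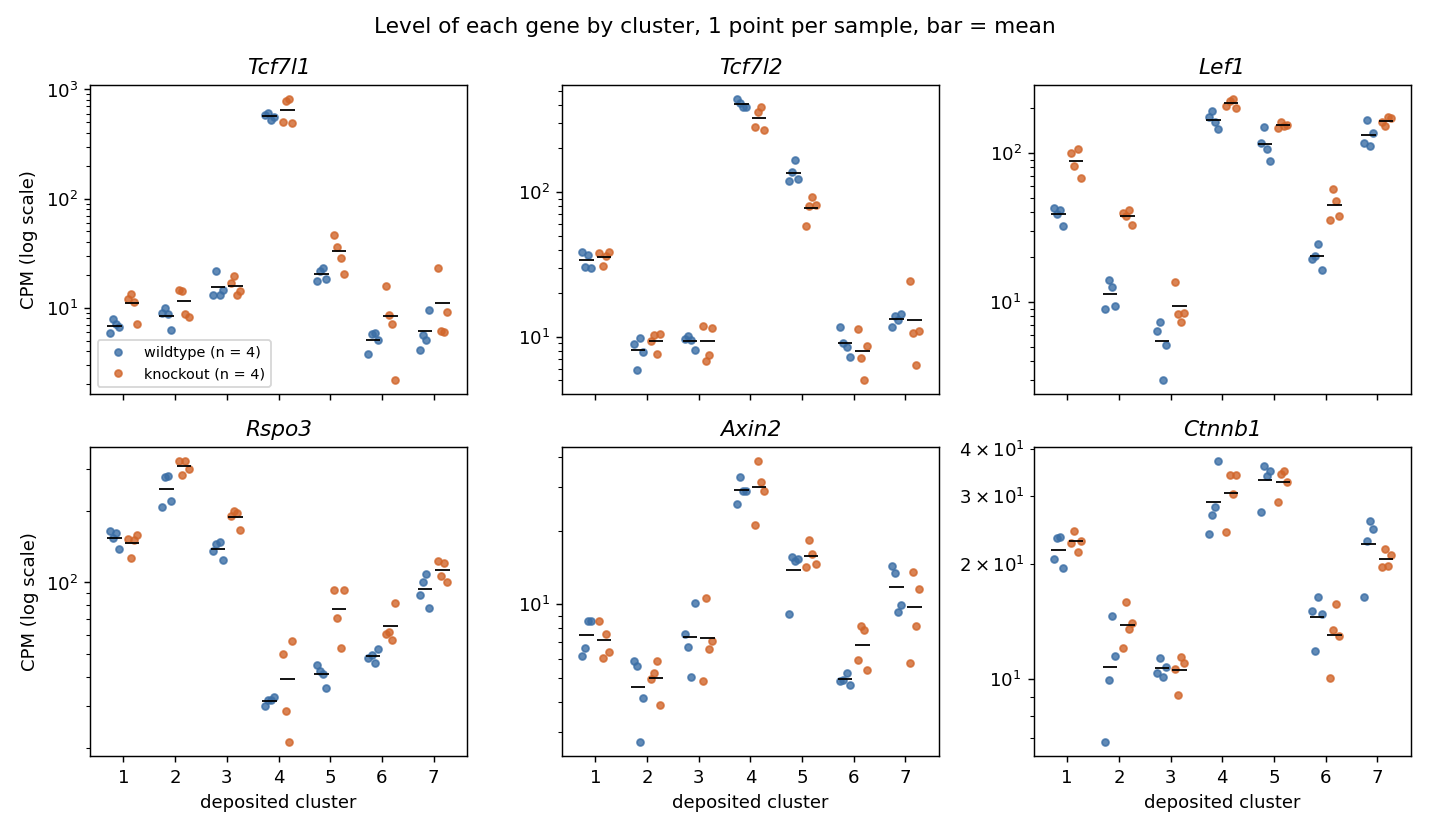
Level of each gene in CPM (y axis, log scale) in the 7 deposited clusters (x axis); each point is 1 sample, blue for wildtype and orange for knockout, and bars are group means. In cluster 2, Lef1 is 8.998 to 14.1 CPM in wildtype and 32.9 to 41.2 CPM in knockout samples, and in cluster 5, Tcf7l2 is 119 to 165 CPM in wildtype and 57.9 to 91.8 CPM in knockout samples.

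The share of nuclei with a Lef1 UMI was also higher in knockout samples. After each nucleus was thinned to 1400 UMIs, it was 4.62% ± 0.846 in wildtype and 10.5% ± 2.56 in knockout samples of cluster 1 (SD, n = 4), against 7.67% and 17.5% before thinning. In cluster 2 it was 1.36% ± 0.508 and 4.89% ± 0.431, against 2.99% and 8.89% before thinning. Thinned UMIs per nucleus that held any Lef1 were 1.15 in wildtype and 1.18 in knockout nuclei of cluster 1. At such low shares this value is held near 1, so it does not tell more nuclei from more RNA per nucleus. In cluster 4 the thinned share was 15.7% ± 1.08 and 22.0% ± 1.47, and thinned UMIs per nucleus with any Lef1 were 1.49 and 1.37, wildtype first. Cluster 3, where the gene was lowest, had thinned shares of 0.575% and 1.26%. Median depths per nucleus, wildtype then knockout, were 2365 and 2500 UMIs for cluster 1, 2905 and 2728 for cluster 2, 3089 and 2972 for cluster 3 and 2826.5 and 2968 for cluster 4.

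**Figure D3:**
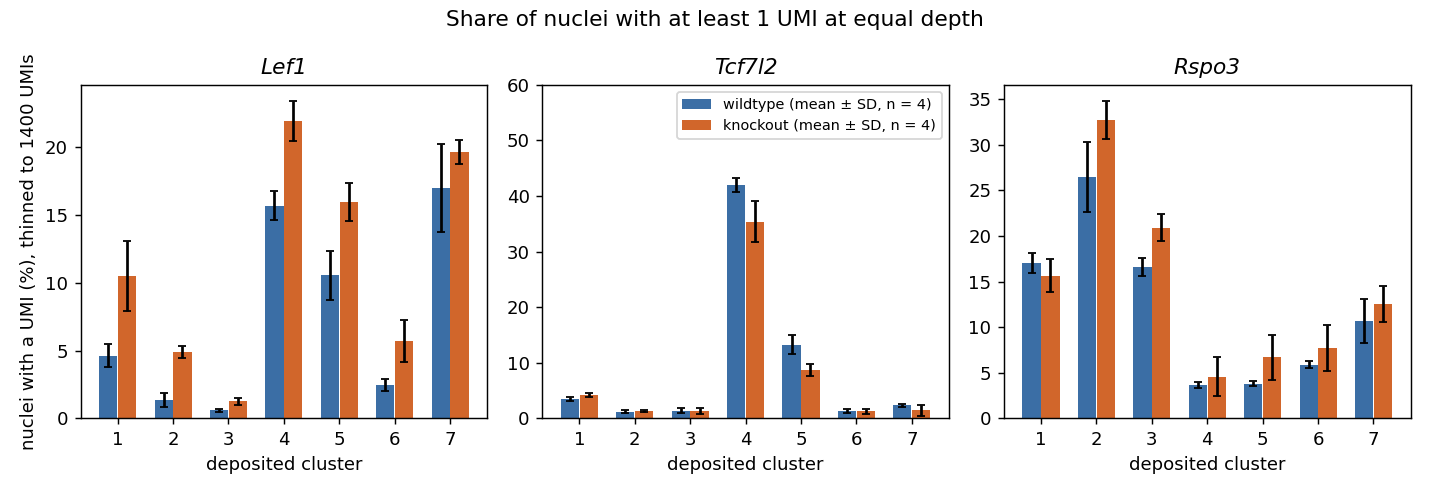
Share of nuclei with at least 1 UMI after thinning to 1400 UMIs (y axis, percent, from 0) by cluster (x axis) for Lef1, Tcf7l2 and Rspo3; bars are means of 4 samples and error bars are SDs. The Lef1 share is 4.62% in wildtype and 10.5% in knockout in cluster 1, and the Tcf7l2 share is 13.2% and 8.69% in cluster 5.

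Layer markers also differed between the genotypes in clusters 1 and 2. Cux1 and Cux2, known from upper-layer neurons, were called lower in knockout in both. In cluster 1 the 7 deep-layer markers summed to 2452 to 2930 CPM in wildtype and 3676 to 5064 CPM in knockout, with Fezf2, Foxp2, Sox5 and Bcl11b called higher. In cluster 2 the same list summed to 7635 to 9162 CPM in wildtype and 10227 to 12198 CPM in knockout, with Sox5, Tbr1 and Bcl11b called higher. Interneuron markers summed to 28.03 to 43.9 and 9.90 to 23.5 CPM in cluster 1, and 26.6 to 31.7 and 9.18 to 23.2 CPM in cluster 2, wildtype first. Striatal markers summed to 32.3 to 51.7 and 10.97 to 21.2 CPM in cluster 1 and 13.2 to 36.4 and 4.68 to 11.2 CPM in cluster 2, with Isl1 and Ebf1 called lower in both. Oligodendrocyte precursor markers summed to 3.49 to 4.40 and 0.77 to 1.93 CPM in cluster 1 and 3.20 to 6.65 and 1.31 to 2.48 CPM in cluster 2. In cluster 6 the deep-layer list summed to 2195 to 2278 and 2604 to 3034 CPM, with Sox5 called higher. Apical progenitor markers summed to 675 to 941 and 604 to 742 CPM in cluster 1 and 665 to 875 and 640 to 811 CPM in cluster 2, wildtype first. Among these, Nes alone was called, higher in knockout in both clusters. In cluster 2, Reln of the Cajal-Retzius list was called higher and Ntng1 of the thalamic list lower. In cluster 1, Lhx9 and Slc17a6 of the thalamic list were called, 1 higher and 1 lower. No marker of these lists was at 0. Within wildtype, Lef1 was lower in the deep-layer neuron-like clusters 2 and 3 than in cluster 1 in 4 of 4 samples. Its wildtype means were higher in clusters 4, 5 and 7, at 167, 114 and 132 CPM. The part of these marker shifts, or of RNA from other clusters, in the Lef1 result was not tested.

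Tcf7l2, a TCF factor that both represses and activates Wnt targets, was lower in knockout in cluster 5. The wildtype samples held 119, 136, 165 and 123 CPM and the knockout samples 57.9, 79.6, 91.8 and 81.7 CPM. Every knockout sample lay below every wildtype sample, and the ratio of means was 0.572. The log2 fold change was -0.77 ± 0.14 (SE, n = 4 per group; edgeR adjusted p = 0.0105), and the adjusted p stayed at or under 0.0366 in all 13 alternatives. Thinned shares of nuclei with a UMI in cluster 5 were 13.2% ± 1.70 in wildtype and 8.69% ± 1.11 in knockout samples, against 19.1% and 13.2% before thinning, with median depths of 2218 and 2484 UMIs. In cluster 2, where wildtype Tcf7l2 was lowest, the thinned shares were 1.17% and 1.33%.

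In the progenitor-like cluster 4, where Tcf7l2 was highest, the wildtype samples held 437, 412, 387 and 387 CPM and the knockout samples 279, 354, 388 and 268 CPM. Only knockout replicate 3 reached the wildtype range, and the log2 fold change was -0.31 ± 0.11 (edgeR adjusted p = 0.160, 0.0515 to 0.359 over the alternatives). Over all nuclei the log2 fold change of Tcf7l2 was 0.00 ± 0.16 (edgeR adjusted p = 0.997). In cluster 1 it was 0.11 ± 0.11 (adjusted p = 0.697), with 33.8 CPM in wildtype and 35.8 CPM in knockout. Clusters 2, 3, 6 and 7 held 8.02 to 13.2 CPM on average in either genotype. Apical progenitor markers summed to 1948 to 2426 CPM in wildtype and 1549 to 1618 CPM in knockout samples of cluster 4, with Slc1a3 and Fabp7 called lower. The oligodendrocyte precursor list summed there to 9.8 to 11.8 and 1.7 to 3.1 CPM and the mural and meningeal list to 33.8 to 45.2 and 16.4 to 28.4 CPM, wildtype first. The endothelial list summed to 10.1 to 12.7 and 5.49 to 8.70 CPM. Of the 8 measured hem and choroid plexus markers, 6 summed to 22.2 to 29.8 and 17.8 to 21.5 CPM. This sum does not stand for the whole list, which is not reported here. The thalamic list summed to 486 to 531 and 396 to 484 CPM, with Lhx2 called higher and Prox1 and Ntng1 lower, and the deep-layer markers Fezf2 and Foxp2 were called higher. The part of these lists in the values of Lef1 and Tcf7l2 there was not tested.

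In cluster 5 the fold changes of Lef1 and Tcf7l2 had opposite signs, and of these only Tcf7l2 passed the test. The count of Lef1 UMIs per Tcf7l2 UMI in cluster 5 was 0.975, 1.09, 0.638 and 0.714 in the wildtype samples and 2.53, 2.02, 1.65 and 1.87 in the knockout samples. In cluster 4 the same ratio ran from 0.373 to 0.463 in wildtype and from 0.592 to 0.742 in knockout. The groups did not overlap in either cluster. These ratios are given as a description, with no test.

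Tcf7l1, a factor known mainly as a repressor of Wnt targets, was the most cluster-restricted of the 6 genes. In wildtype it averaged 569 ± 39.2 CPM (SD, n = 4) in cluster 4, 28.2 times the 20.2 CPM of cluster 5, the next in order. The lowest was cluster 6 at 5.10 CPM. By ratio to the mean of the other clusters it ranked 2nd of all genes in cluster 4. Thinned shares of wildtype nuclei with a UMI were 48.8% in cluster 4 and 0.570% to 2.19% in the others, with median depths of 2826.5 UMIs in cluster 4 and 2946 in cluster 6, whose share was the lowest.

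No comparison of Tcf7l1 between genotypes passed the edgeR test at an adjusted p of 0.05 or the DESeq2 test, and 4 of 8 had an unadjusted edgeR p under that value. In cluster 4 the wildtype samples held 581, 614, 521 and 559 CPM and the knockout samples 504, 789, 818 and 493 CPM. Knockout replicates 2 and 3 lay above and replicates 1 and 4 below all wildtype samples, and the log2 fold change was 0.22 ± 0.15 (edgeR adjusted p = 0.535). Xist, used here to assign sex, had 128 and 85 UMIs in knockout replicates 2 and 3 and 0 in replicates 1 and 4. In this cluster Tcf7l2 was also lower, and Rspo3 higher, in knockout replicates 1 and 4 than in 2 and 3. Wildtype replicate 4, which also had 0 Xist UMIs, held 559 CPM of Tcf7l1, 387 of Tcf7l2 and 32.7 of Rspo3 there. The other wildtype samples held 521 to 614, 387 to 437 and 30.2 to 32.0 CPM, in that order. With sex as a covariate the Tcf7l1 log2 fold change was 0.28 (edgeR adjusted p = 0.194). The part of sex in the spread of the knockout samples was not tested. In cluster 1 the means were 6.84 and 10.9 CPM (log2 fold change 0.72 ± 0.20, edgeR adjusted p = 0.0505), with an adjusted p of 0.0391 with the replicate block, 0.0351 with sex as a covariate, 0.0492 with no filter and 0.00622 without knockout replicate 4. In cluster 5 the means were 20.2 and 32.9 CPM (0.78 ± 0.20, adjusted p = 0.0892, or 0.0173 without knockout replicate 4).

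Over all nuclei the Tcf7l1 levels were 125, 97.9, 63.9 and 83.0 CPM in wildtype and 158, 174, 141 and 82.0 CPM in knockout (log2 fold change 0.61 ± 0.23, edgeR adjusted p = 0.174, or 0.0283 without knockout replicate 4). The share of nuclei in cluster 4 was 20.2%, 13.7%, 9.69% and 12.9% in the wildtype samples and 25.5%, 19.6%, 15.2% and 13.1% in the knockout samples, in the same replicate order. The order of the shares followed that of the levels in wildtype but not in knockout, where replicate 1 had the largest share and replicate 2 the highest level. The part of this share in the level over all nuclei was not tested.

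Rspo3, the R-spondin among the 6 genes, had its highest wildtype level in the deep-layer neuron-like cluster 2 and its lowest in the progenitor-like cluster 4. It was higher in knockout in clusters 3 and 5. In cluster 5 the wildtype samples held 44.9, 42.1, 41.1 and 35.7 CPM and the knockout samples 93.3, 70.6, 53.1 and 93.3 CPM, a ratio of means of 1.90. The groups did not overlap, and the log2 fold change was 0.93 ± 0.16 (SE, n = 4 per group; edgeR adjusted p = 0.00738). In cluster 3 the levels were 136, 145, 148 and 124 CPM in wildtype and 191, 199, 197 and 166 CPM in knockout, also with no overlap. The log2 fold change there was 0.47 ± 0.08 (edgeR adjusted p = 0.00537). Both calls held under all 13 alternatives, with an adjusted p of at most 0.0382 and 0.0269.

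In cluster 2, where Rspo3 was highest, the wildtype samples held 209, 278, 282 and 221 CPM and the knockout samples 326, 283, 326 and 302 CPM. The groups were separate by less than 1 CPM, and the log2 fold change was 0.32 ± 0.10 (edgeR adjusted p = 0.0637). With the replicate block the adjusted p was 0.0343, with DESeq2 0.0491, and without wildtype replicates 2 and 3 in turn 0.0486 and 0.0183. In cluster 6 the means were 49.0 and 65.4 CPM, with no overlap (0.41 ± 0.12, adjusted p = 0.187). In cluster 4 the wildtype samples lay between 30.2 and 32.7 CPM while the knockout samples spread from 21.2 to 56.5 CPM (0.31 ± 0.25, adjusted p = 0.610). Cluster 1 was the only one of the 7 in which the Rspo3 fold change was below 0, at -0.04 ± 0.08 (adjusted p = 0.865).

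In cluster 5 the Cajal-Retzius marker list summed to 57.3 to 94.1 CPM in wildtype and 114 to 135 CPM in knockout samples, and Reln, the 1 of its 5 genes that passed the filter on low counts there and in clusters 2 and 3, was called higher in all of these. Sox5 and Bcl11b, deep-layer markers, were also called higher in cluster 5. Intermediate progenitor markers, which peaked in that cluster, summed to 282 to 484 CPM in wildtype and 316 to 452 CPM in knockout, and none was called in the edgeR test. Of the 8 measured hem and choroid plexus markers, the same 6 summed to 12.2 to 15.7 CPM in wildtype and 16.2 to 17.7 CPM in knockout. None of the 2 tested among these 6 was called by edgeR, and their sum does not stand for the whole list. The part of these differences in the Tcf7l2 and Rspo3 results was not tested. The thinned share of nuclei with an Rspo3 UMI in cluster 5 was 3.81% ± 0.254 in wildtype and 6.67% ± 2.47 in knockout samples, against 6.62% and 11.7% before thinning. In cluster 4, where Rspo3 was lowest, the thinned shares were 3.68% and 4.56%, with median depths of 2826.5 and 2968 UMIs against 2218 and 2484 in cluster 5, so the wildtype share of cluster 5 was close to the lowest one found.

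Axin2, whose transcription is a common readout of β-catenin activity, and Ctnnb1 itself showed no difference between the genotypes that was detectable at this depth. None of their 16 comparisons passed the edgeR test, none had an unadjusted p under 0.05, and DESeq2 called none. Over all nuclei Axin2 was 10.97, 11.6, 8.998 and 11.3 CPM in wildtype and 11.2, 15.4, 11.9 and 10.6 CPM in knockout (log2 fold change 0.22 ± 0.13). In cluster 4, where it was highest, Axin2 was 29.2 ± 3.08 CPM in wildtype and 30.1 ± 7.18 CPM in knockout (0.08 ± 0.17). The groups did not overlap in cluster 6 (4.69 to 5.27 CPM against 5.40 to 8.15 CPM), where Axin2 rested on 56 and 43 UMIs in all, at an adjusted p of 0.568. Ctnnb1 over all nuclei was 16.5, 19.3, 19.4 and 20.3 CPM in wildtype and 19.1, 23.1, 20.5 and 20.2 CPM in knockout (0.15 ± 0.09). Its widest fold change was in cluster 2, at 10.7 and 13.9 CPM (0.40 ± 0.20, edgeR adjusted p = 0.287).

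Groups did not overlap in 12 of the 48 comparisons: 6 of Lef1, 4 of Rspo3 and 1 each of Tcf7l2 and Axin2. Among all genes tested, the share without overlap was 11.3% over all nuclei and 10.3%, 14.1%, 8.86%, 9.76%, 6.17%, 5.92% and 5.92% for clusters 1 to 7 in turn. In cluster 7 none of the 6 genes was called by edgeR or DESeq2, and 2 had an unadjusted edgeR p under 0.05.

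Whether the effect of genotype differed between clusters was tested against cluster 4 with exact two-sided permutation tests of log2(CPM + 1) differences, 24 tests in all. The Lef1 change exceeded that of cluster 4 by 1.32, 0.79 and 0.73 for clusters 2, 1 and 6, and the Rspo3 change did so by 0.69 for cluster 5. Each of these had an exact permutation p = 0.0286, the smallest that the 70 arrangements of 8 samples can give, and an adjusted p of 0.171. For Tcf7l2 in cluster 5 the difference was -0.46 (exact permutation p = 0.0571, adjusted p = 0.274). None of the 24 passed after adjustment, but with this smallest p at least 14 of the 24 would have had to reach it for any to pass. The tests therefore do not settle whether the effects of genotype differ between clusters.

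Levels across clusters are a description, since the clusters were made from these nuclei. In wildtype, Tcf7l2 averaged 406, 136, 33.8 and 13.2 CPM in clusters 4, 5, 1 and 7, with no overlap between these neighbours, while clusters 3, 6 and 2 (9.33, 9.09 and 8.13 CPM) overlapped. Lef1 averaged 167, 132 and 114 CPM in clusters 4, 7 and 5, where neighbouring ranges overlapped, then 38.8, 20.2, 11.3 and 5.43 CPM in clusters 1, 6, 2 and 3, each apart from the next. The range of cluster 7 overlapped that of the progenitor-like cluster 4 for Lef1 and lay far under it for Tcf7l2. Rspo3 averaged 248, 155, 138, 93.8, 49.0, 40.9 and 31.7 CPM in clusters 2, 1, 3, 7, 6, 5 and 4, and only clusters 1 and 3 overlapped as neighbours. Axin2 was highest in cluster 4 (29.2 CPM) and lowest in cluster 2 (4.59 CPM). Ctnnb1 varied least, from 33.1 CPM in cluster 5 to 10.7 CPM in cluster 3, a ratio of 3.10 against 112 for Tcf7l1.

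In knockout the order changed for a few neighbours. Rspo3 in cluster 3 (188 CPM) stood above cluster 1 (147 CPM) without overlap, whereas in wildtype cluster 1 was the higher in 4 of 4 samples. Lef1 in cluster 2 (37.8 CPM) overlapped cluster 6 (44.4 CPM), and the ratio of cluster 2 to cluster 3 was 4.02 against 2.07 in wildtype. Tcf7l2 in cluster 5 stood 2.17 times above cluster 1, against 4.02 times in wildtype.

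Over the 28 wildtype values (7 clusters in 4 samples, which share libraries and clusters), the genes most like each of the 6 in log2 level were named by Pearson's r among 8347 candidates. For Tcf7l2 they were Mir9-3hg (r = 0.995), Cdc14a (0.986) and Gli2 (0.982). For Lef1 they were Smo (0.977), Irs1 (0.964) and Sh3bgrl (0.963). For Tcf7l1 they were Rfx4 (0.976), Ccdc18 (0.969) and Lonrf3 (0.968), and for Rspo3 they were Ppp1r16b (0.958), Pde4d (0.954) and Nav3 (0.951). For Axin2 they were Tspan12 (0.933), Tead1 (0.919) and Plpp3 (0.919), and for Ctnnb1 they were Mir99ahg (0.917), Dck (0.915) and Vangl2 (0.910). Between members, r was 0.83 for Tcf7l1 and Tcf7l2, 0.88 for Lef1 and Ctnnb1, and -0.69 for Tcf7l2 and Rspo3.

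Within cluster 4 the deposited cell cycle angle was used to split nuclei into ranges that the angle's scale assigns to G1/G0, S and G2/M. Tcf7l1 and Tcf7l2 were higher in the G2/M range than in either other range in 8 of 8 samples. Wildtype Tcf7l1 averaged 553 ± 82.7 CPM in G1/G0, 486 ± 50.04 in S and 707 ± 39.5 in G2/M (SD, n = 4). Wildtype Tcf7l2 averaged 355 ± 62.2, 363 ± 20.2 and 488 ± 30.6 CPM. Rspo3 ran the other way and was lower in G2/M than in G1/G0 in 8 of 8 samples, at 19.6 ± 5.07 against 45.5 ± 13.3 CPM in wildtype. Lef1 and Axin2 were lower in S than in G1/G0 in 7 of 8 samples each. Between 67 and 259 nuclei per sample fell in the G1/G0 range, so its values are the least precise. The genes behind the angle are not listed in the labels, and these differences are a description.

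**Figure D4:**
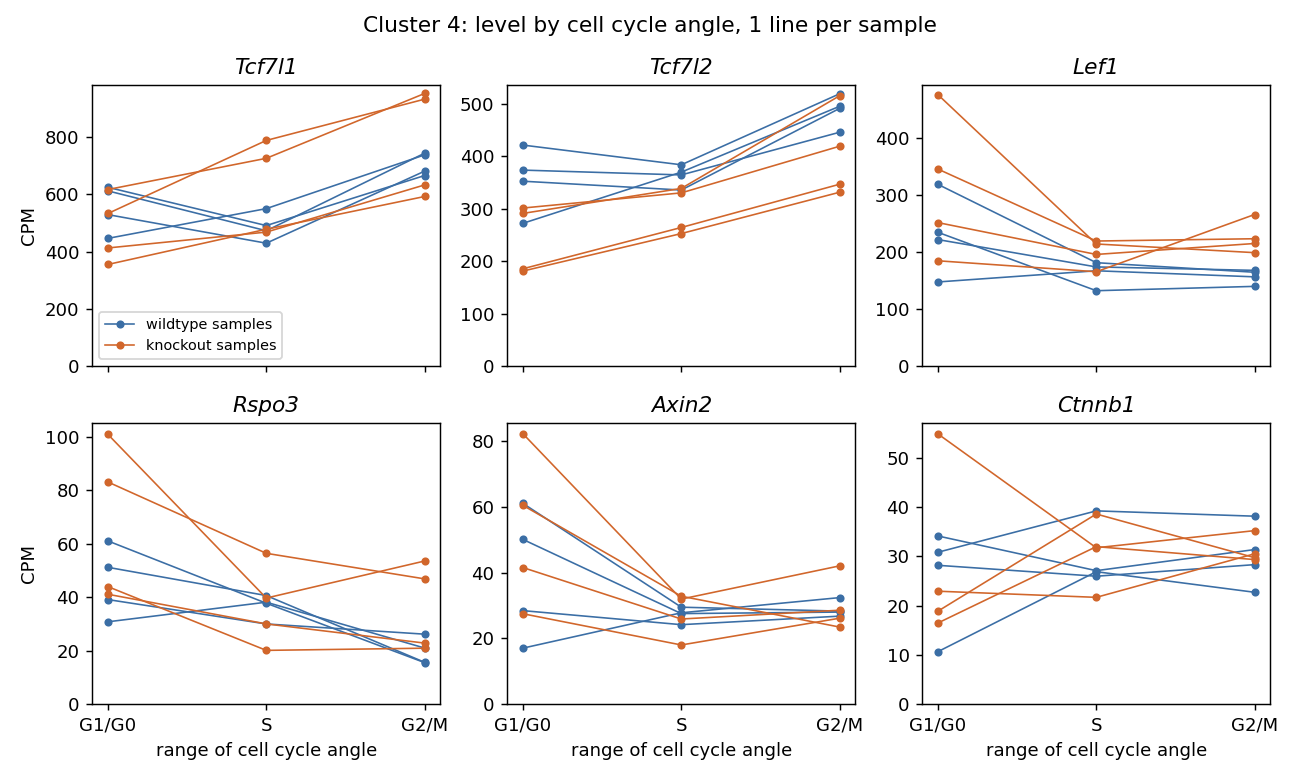
Level of each gene in CPM (y axis, from 0) in the G1/G0, S and G2/M ranges of the deposited cell cycle angle (x axis) in cluster 4; each line is 1 sample, blue for wildtype and orange for knockout. Lines of Tcf7l1 and Tcf7l2 end higher in G2/M than in S in all 8 samples, and those of Rspo3 end lower in G2/M than they start in G1/G0.

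Other genes of the pathway were read from 6 lists of ligands, secreted modulators, receptors, signal transducers, nuclear partners and targets, chosen with earlier results of these data known. Of their 103 further genes, 77 were in the tables. Over all nuclei 4 of the 75 tested were called higher and 4 lower, 10.7% against 5.26% of all genes. In cluster 2, 8 of 58 were higher and 4 lower, 20.7% against 9.11%. In cluster 1, 4 of 60 were higher and none lower, 6.67% against 4.84%. The shares were below those of all genes in cluster 3 (1 of 61, 1.64% against 3.36%) and cluster 4 (2 of 68, 2.94% against 4.29%), and near or above them in cluster 5 (1 of 57, 1.754% against 1.77%) and cluster 7 (1 of 54, 1.85% against 1.03%). In cluster 6 edgeR and DESeq2 called none of the 52 tested, and 7 had an unadjusted edgeR p under 0.05. The median log2 fold change of these genes was 0.06 over all nuclei and 0.05 in clusters 1 and 2, against 0.00 for all genes in each. The 18 transducers beside the members, which include the destruction complex, held no edgeR call over all nuclei and 1 in each of clusters 1 and 2, Csnk1g1.

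Of the 10 listed targets tested over all nuclei, 3 were called higher and 1 lower. In cluster 2, 3 of 7 were higher and 1 lower, in cluster 3 1 of 7 was lower, and in cluster 4 edgeR called none of 7. Apcdd1, a membrane inhibitor of Wnt signalling, rose in clusters 1 and 2. In cluster 1 it was 9.61, 11.4, 5.49 and 11.7 CPM in wildtype and 24.2, 51.7, 34.4 and 17.3 CPM in knockout, with no overlap (log2 fold change 1.83 ± 0.31, edgeR adjusted p = 0.00269). In cluster 2 it was 20.9, 18.7, 9.59 and 18.2 CPM and 41.5, 77.8, 48.4 and 31.9 CPM, again apart (1.59 ± 0.27, adjusted p = 0.00188). In the deep-layer neuron-like cluster 3, where wildtype Apcdd1 was highest, the means were 61.5 and 63.6 CPM (0.11 ± 0.20, edgeR adjusted p = 0.877). Nkd1, a feedback inhibitor that binds Dishevelled, rose over all nuclei from 7.96 to 11.9 CPM (0.60 ± 0.10, adjusted p = 0.0104). Tnfrsf19, a receptor listed with the targets, rose in cluster 1 from 25.3 to 37.1 CPM (0.60 ± 0.11, adjusted p = 0.00520). Axin2, the usual target, was 7.49 and 7.13 CPM in that cluster. The part of the layer marker shifts of clusters 1 and 2 in the values of these targets, and of the receptors and modulators below, was not tested.

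Among receptors, Ror2, which takes up Wnt signals that do not use β-catenin, rose in cluster 2 from 13.2 ± 3.10 to 27.6 ± 4.53 CPM (log2 fold change 1.10 ± 0.17, edgeR adjusted p = 0.000940) and over all nuclei from 29.0 to 44.1 CPM (0.62 ± 0.10, adjusted p = 0.00713). Its relative Ror1 rose in cluster 7 from 27.6 to 52.8 CPM (0.95 ± 0.16, adjusted p = 0.00538). Fzd3, a Frizzled receptor known for axon guidance, rose in cluster 2 from 206 to 251 CPM (0.29 ± 0.06, adjusted p = 0.00833). Among secreted modulators, Draxin, an axon guidance protein that also inhibits Wnt signalling, rose in cluster 2 from 89.6 to 136 CPM (0.61 ± 0.09, adjusted p = 0.000956).

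Rspo2, the relative of Rspo3, fell in cluster 2, where it was 32.7, 13.03, 16.0 and 17.5 CPM in wildtype and 5.58, 6.00, 2.18 and 7.01 CPM in knockout (log2 fold change -1.96 ± 0.33, edgeR adjusted p = 0.00215). All wildtype samples lay above all knockout samples. In the same cluster the Rspo3 fold change was above 0 and not called, so the fitted values of these R-spondins had opposite signs. Rspo2 also marks the cortical hem. Of the 8 measured hem and choroid plexus markers, which include Rspo2, a set of 6 without it summed to 11.2 to 13.1 CPM in wildtype and 6.75 to 12.4 CPM in knockout samples of cluster 2. The ranges overlapped, but this sum does not stand for the whole list. The part of hem and choroid plexus RNA in the Rspo2 result was not tested.

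The calls of Apcdd1, Nkd1, Tnfrsf19, Ror2, Ror1, Fzd3, Draxin and Rspo2 given above held under all 13 alternatives. The 12 listed genes named by rule gave 22 calls, of which 10 held under all alternatives and 12 were lost under at least 1 of them. The 12 include Apcdd1 over all nuclei and in cluster 5 (log2 fold changes of 0.72 and 0.86, adjusted p up to 0.123 and 0.0968), Rspo2 over all nuclei (-0.76, lost without knockout replicates 2 and 3, up to 0.0585) and Ndp over all nuclei (-0.68, lost without wildtype replicate 4 and knockout replicates 2 and 3, up to 0.0641). They also include Znrf3, the target of R-spondins, at -0.41 in cluster 2 (lost without wildtype replicates 1 and 2 and knockout replicate 2, up to 0.0548) and -0.32 in cluster 3 (up to 0.155). Bcl9 (-0.25), Nkd1 (0.75) and Tnfrsf19 (0.33) in cluster 2, Tnfrsf19 over all nuclei (0.46) and Csnk1g1 in clusters 1 and 2 (0.21 and 0.20) make up the rest. With the replicate block the adjusted p of Csnk1g1 in cluster 2 was 0.0603. The further listed genes had 1 call each, and Wnt5b and Lgr4 gave those of cluster 4 (0.67 ± 0.15 and -0.75 ± 0.18, adjusted p of 0.0229 and 0.0376).

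**Figure D5:**
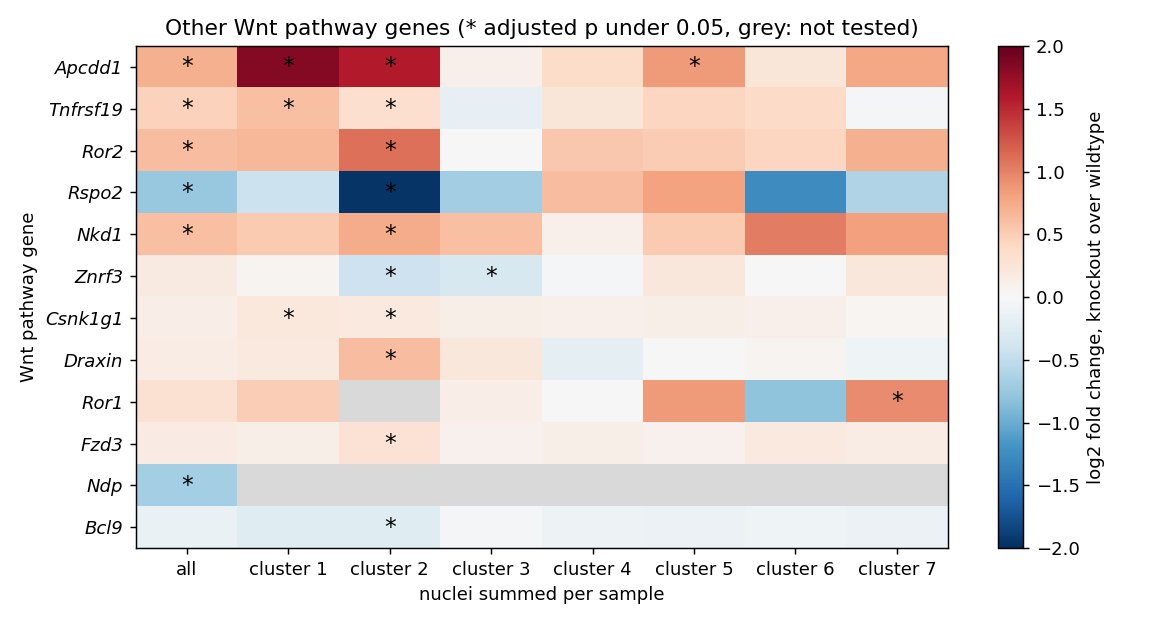
Log2 fold change, knockout over wildtype (colour), of 12 further Wnt pathway genes (y axis) over all nuclei and in each cluster (x axis); stars mark an adjusted p under 0.05 and grey marks cells not tested. Apcdd1 is red in all 8 columns and starred in 4, and Rspo2 is darkest blue in cluster 2 at -1.96.

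Genes within 1 Mb of the 6 genes were read for comparison over all nuclei. Near Lef1, 1 of 10 tested neighbours was called, Col25a1, and it was lower in knockout (log2 fold change -0.61, edgeR adjusted p = 0.0298) where Lef1 was higher. Within single clusters edgeR did not call Col25a1, and its lowest adjusted p was 0.0955, in cluster 2. Of its 2022 wildtype and 1285 knockout UMIs, 702 and 160 were in cluster 6, which had 3524 and 1955 nuclei. The part of the mix of cells in this call was not tested. Near Tcf7l2 1 of 12 was called (Afap1l2), near Tcf7l1 3 of 20 (Usp39, St3gal5 and Immt) and near Ctnnb1 1 of 20 (Vipr1), against 5.26% of all genes. None of 10 near Rspo3 and none of 12 near Axin2 was called by edgeR. These neighbours were named for their position.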

How the data were processed

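Per the labels' protocols, libraries of single nuclei from flash-frozen tissue used 10x Genomics 3′ kits of version 2. The authors deposited UMI counts per gene and nucleus for each sample, whole numbers that are not normalised. The submitters' processing notes name kallisto, bustools and the build mm10, while filters and versions are not given in the sources used here. Gene positions in the deposited tables equal those of GENCODE M21 on GRCm38 for only 352 of 14162 genes matched by ID, so positions were taken from M21 by gene ID. The deposited cell cycle angle is a score in radians, and the deposited cluster number was used as it stands. Deposited hybrid doublet scores reach at most 0.5, and no doublet caller was run. All nuclei were kept.

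For each sample, UMIs were added up over all its nuclei and over those of each cluster, at a depth of 20446698 to 34083796 UMIs per sample, whose number limits the precision. Fits used edgeR 4.0.16 (R 4.3.3): TMM scaling, filterByExpr and the quasi-likelihood fit and test (glmQLFit, glmQLFTest), without covariates. Alternatives were DESeq2 1.42.0, its size factors in edgeR, no filter on low counts, a replicate block, sex by Xist as a covariate and leaving out each sample. Xist had 77, 84, 77 and 0 UMIs in wildtype replicates 1 to 4 and 0, 128, 85 and 0 in knockout replicates 1 to 4. Sex by Xist was thus not balanced between the genotypes. The assignment rests on few UMIs, at most 128 in a sample of 10921 nuclei, and a sample may be a pool of embryos. On simulated counts in which 200 genes differed by 1 on the log2 scale, 92.5% were recovered over all nuclei (13926 genes) and 77.5% (cluster 6, 10522 genes) to 87.5% (cluster 3, 11890 genes) in the clusters. Those genes were drawn at random, so these shares do not give the recovery of smaller changes or at the level of a single gene. False calls in the simulation are not given here. Printed CPM carry no TMM factor, and fold changes do. SEs come from the F statistic.

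Same-numbered samples correlated across genes in their deviations from group means at 0.384, 0.184, 0.184 and 0.184, each over the 0.1 set for pairing, while other pairs ranged from -0.346 to 0.276, which met the rule set for pairing. The tests given first, and the permutation tests, leave the pairing out. The fit with the replicate block is an alternative, printed where it changes a call of the members. Among the named pathway genes, the block lost the call of Csnk1g1 in cluster 2 and added others. Without and with it, the edgeR adjusted p was 0.0893 and 0.0120 for Rspo2 in cluster 3. For Ror2 it was 0.0552 and 0.0175 in cluster 4, and 0.107 and 0.0309 in cluster 7. For Bcl9 in cluster 1 it was 0.0663 and 0.00727.

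A cluster was named after the list with most markers highest there, with at least 3 at 10 CPM and 1.5 times the median of the others, unless another list had more markers among its top 10 genes. All 6 members, the 3 genes most like each and at most 12 called pathway genes were named. Nuclei were thinned to 1400 UMIs, with none below that depth. Angle ranges were 1.75 to 0.25 pi for G1/G0, 0.5 to 1 pi for S and 1 to 1.75 pi for G2/M. The members and lists were chosen with earlier results of these data known. The targeted gene was not analysed here, and results that need certain marker genes are not reported here.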

Additional observations from a re-analysis of the deposited data

Results flagged for a closer look

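Axin2 in cluster 5 was 9.12 CPM in wildtype replicate 1, while the other 3 wildtype samples lay between 15.0 and 15.6 CPM. The gap to the nearest sample was 0.901 of the range of the group, above Dixon's 95% critical value for 4 samples. This was 1 of 96 groups looked at, and chance gives about 1 in 20.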

How the results depend on the processing

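The count of calls among the 48 comparisons was 8, and 8 with DESeq2 size factors, 9 with DESeq2, 9 with no filter, 11 with the replicate block, 10 with sex as a covariate and 7 to 11 with a sample left out. The replicate block added Lef1 in cluster 3, Rspo3 in cluster 2 and Tcf7l1 in cluster 1 and changed no other call of the 6 genes. Sex as a covariate added Lef1 in cluster 5 and Tcf7l1 in cluster 1. Among all genes the 8 comparisons gave 3638 calls, and 2275 and 2161 without knockout replicates 2 and 3. No call of the 6 genes reversed. Fold changes that changed sign were all uncalled: with sex as a covariate Ctnnb1 and Tcf7l2 in cluster 3 were -0.00308 and -0.0391. With a sample left out, Tcf7l1 in cluster 3 ran from -0.079 to 0.26, Tcf7l2 from -0.084 to 0.16 over all nuclei, from -0.10 to 0.16 in cluster 3, from -0.39 to 0.00028 in cluster 6 and from -0.48 to 0.17 in cluster 7. Rspo3 in cluster 1 ran from -0.096 to 0.024, and Axin2 from -0.045 to 0.29 in cluster 2, from -0.20 to 0.27 in cluster 3 and from -0.082 to 0.24 in cluster 4. Ctnnb1 ran from -0.042 to 0.071 in cluster 3 and from -0.070 to 0.086 in cluster 5. The cause was not tested. With a pseudocount of 5 CPM none of the 24 exact permutation tests between clusters passed after adjustment either, and 4 had p = 0.0286 as before. Depth limits Axin2 and Ctnnb1 most, at 1074 and 1898 UMIs over all wildtype nuclei.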

Other observations

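In clusters 6 and 7 the highest Tcf7l1 level among the 8 samples was in knockout replicate 1, at 16.0 and 23.1 CPM against 2.16 to 8.62 and 6.01 to 9.11 CPM in the other knockout samples. Tcf7l2 in cluster 7 was also highest there, at 24.3 CPM against 6.44 to 11.03 CPM. The same sample had the largest share of nuclei in cluster 4, 25.5%, where both genes peak. Whether that share bears on these values was not tested.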
